A study of Mus musculus with 8 samples.

Results

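The 10 genes described here move sodium, chloride or water across the colonic epithelium: Slc26a3, Slc9a3, Slc9a2, Scnn1a, Scnn1b, Scnn1g, Aqp8, Aqp4, Cftr and Slc12a2. They were chosen by symbol, and all 10 were present among the 17353 genes of the tables and were among the 13381 with enough counts to be tested. Colonic mucosa was taken on day 7 from 8 mice, all C57BL/6J, male and wild type, 2 in each of 4 groups, and its mRNA was sequenced. Kuiyangling mice received this herbal formula by enema at 10 g/kg, and mesalazine mice an enema at 50 mg/kg of mesalazine, an aminosalicylate given for ulcerative colitis. DSS model mice and control mice both received saline enemas, and every enema had a volume of 0.2 ml. The series' design describes a colitis model made by free drinking of 3% dextran sulfate sodium (DSS), a polymer that injures the colonic epithelium. The Kuiyangling, mesalazine and DSS model groups are taken as the DSS-drinking groups, and control mice as the normal group. No label gives the length of colon from which a sample came, and saline with DSS is the only comparator for either treatment. With 2 animals a group, p-values rest on a spread shared by all 8 libraries.

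Colonic surface cells absorb salt by exchanging luminal sodium and chloride for protons and bicarbonate. The sodium-hydrogen exchangers NHE3 (Slc9a3) and NHE2 (Slc9a2) work beside the chloride-bicarbonate exchanger DRA (Slc26a3), loss of which causes chloride-losing diarrhoea. In the distal colon the epithelial sodium channel ENaC, built from alpha, beta and gamma subunits (Scnn1a, Scnn1b and Scnn1g), takes up further sodium under the control of aldosterone. Crypt cells can secrete instead: the basolateral cotransporter NKCC1 (Slc12a2) loads chloride into the cell and the channel CFTR (Cftr) lets it out at the apical membrane. Water follows through and between the cells, and aquaporin 8 (Aqp8) and aquaporin 4 (Aqp4) are the water channels of these membranes in the mouse colon. Falls of several absorptive transporters have been described in inflamed colon.

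The promoters of 4 members are shown because these genes frame the results. Slc26a3 and Aqp8 are genes of absorptive surface cells that were lower in both DSS model libraries than in either control library, and Scnn1b and Scnn1g are channel partners on chromosome 7 whose levels varied unlike each other. Each window runs from 250 bases before to 50 after a RefSeq transcription start on GRCm38.p6, is on the plus strand and is written 5′ to 3′. The build used for the deposited tables was not given in the sources used here. Capitals mark TTTAT, the core bound by the intestinal factor CDX2, and CAAAGGTCA, a form of the site bound by HNF4A. Both motifs were chosen after these sequences had been seen and were searched on both strands.
Slc26a3 promoter, chr12:31437969-31438268: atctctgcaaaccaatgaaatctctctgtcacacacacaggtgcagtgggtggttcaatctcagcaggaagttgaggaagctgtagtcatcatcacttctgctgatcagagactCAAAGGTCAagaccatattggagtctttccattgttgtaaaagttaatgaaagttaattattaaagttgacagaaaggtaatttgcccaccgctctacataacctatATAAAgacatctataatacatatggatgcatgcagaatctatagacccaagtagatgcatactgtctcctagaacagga
Aqp8 promoter, chr7:123462044-123462343: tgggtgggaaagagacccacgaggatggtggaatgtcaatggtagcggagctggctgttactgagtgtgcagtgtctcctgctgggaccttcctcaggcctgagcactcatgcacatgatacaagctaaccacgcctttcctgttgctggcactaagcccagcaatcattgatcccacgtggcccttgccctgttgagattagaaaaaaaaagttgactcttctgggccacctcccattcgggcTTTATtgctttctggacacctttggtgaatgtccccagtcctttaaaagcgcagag
Scnn1b promoter, chr7:121864788-121865087: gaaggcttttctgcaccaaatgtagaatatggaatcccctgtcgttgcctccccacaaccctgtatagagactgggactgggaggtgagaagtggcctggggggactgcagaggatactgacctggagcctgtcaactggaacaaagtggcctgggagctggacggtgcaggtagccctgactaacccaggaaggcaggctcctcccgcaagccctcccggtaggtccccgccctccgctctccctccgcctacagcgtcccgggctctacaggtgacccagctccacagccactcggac
Scnn1g promoter, chr7:121734229-121734528: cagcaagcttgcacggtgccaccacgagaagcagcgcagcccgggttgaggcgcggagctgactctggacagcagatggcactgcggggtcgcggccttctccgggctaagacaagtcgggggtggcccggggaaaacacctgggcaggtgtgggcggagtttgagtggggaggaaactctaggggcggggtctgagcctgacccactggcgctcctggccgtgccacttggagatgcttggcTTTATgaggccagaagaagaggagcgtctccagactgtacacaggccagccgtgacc
Slc26a3 held CAAAGGTCA at bases 115 to 123, counted from 1 at the 5′ end of its window, a motif present in 0.478% of all 32851 promoter windows of this length. TTTAT was found in Aqp8, in Scnn1g and, on the minus strand and so printed as ATAAA, in Slc26a3, and in 40.0% of all windows. The window of Slc26a3 had 1 CpG and that of Aqp8 6, against 10 for Scnn1b, 18 for Scnn1g, 25 for Slc9a3 and 31 for Cftr, with a median of 7 over all windows. A match is a description of the letters and does not show that a factor binds.

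Libraries held 15560946 to 17843715 counts and were similar in depth, so 3 counts, taken as the detection floor, correspond to 0.149 to 0.212 CPM, the TMM-scaled count rate used below. Control 2 and mesalazine 1 stood apart from the rest, with mean Spearman correlations of 0.962 and 0.963 with the other libraries against 0.972 to 0.979. In mesalazine 1, ribosomal protein genes took 12.7% of counts, against 3.35% to 6.68% elsewhere. Control 2 had 1198 CPM of summed B and plasma cell markers, against 112 to 268 elsewhere, and 263 CPM of summed posterior gut genes, against 3.04 to 56.3 elsewhere. The labelled tissue held its defining epithelial markers: all 10 of 10, led by Krt8, were detected in every library, with summed levels of 15934 to 24704 CPM.

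Per unit of length, in the authors' FPKM, the members spanned several orders of magnitude. Median levels over the 8 libraries were 269 FPKM for Aqp8, 144 for Slc9a2, 137 for Slc26a3, 91.3 for Aqp4, 81.5 for Slc9a3, 29.7 for Slc12a2, 15.7 for Cftr, 10.2 for Scnn1a, 3.83 for Scnn1b and 0.416 for Scnn1g. Neighbours in this order had overlapping ranges over the libraries, with the exception of Scnn1b (2.67 to 5.12 FPKM) and Scnn1g (0.0841 to 2.34 FPKM). Aqp8 had the widest range, from 46.8 to 1342 FPKM, and the ENaC subunits had the lowest medians.

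The DSS model was compared with control mice to see what the colitis model changed. Most absorptive genes had lower values in the DSS model, Scnn1b and Aqp4 did not, and no member passed the test. Of the 10 members 8 had a log2 change below 0, with a median of -0.68, beside a median of -0.04 over all genes. Called members numbered 0 of 10, against 0.247% of all genes called, 0.194% higher and 0.0523% lower (edgeR quasi-likelihood test, Benjamini-Hochberg adjusted p under 0.05 over all genes). At an unadjusted p under 0.05 there were 4 of 10, against 14.8% of all genes. DESeq2 called 3, Scnn1a, Scnn1g and Aqp8, all lower, where it called 180 lower and 255 higher over all genes. Limma on FPKM called 0 members. In 7 of 10 members the 2 groups' libraries were fully separated, 6 lower and 1 higher in the DSS model, against 53.4% of all genes, 26.3% lower and 27.1% higher.

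**Figure D1:**
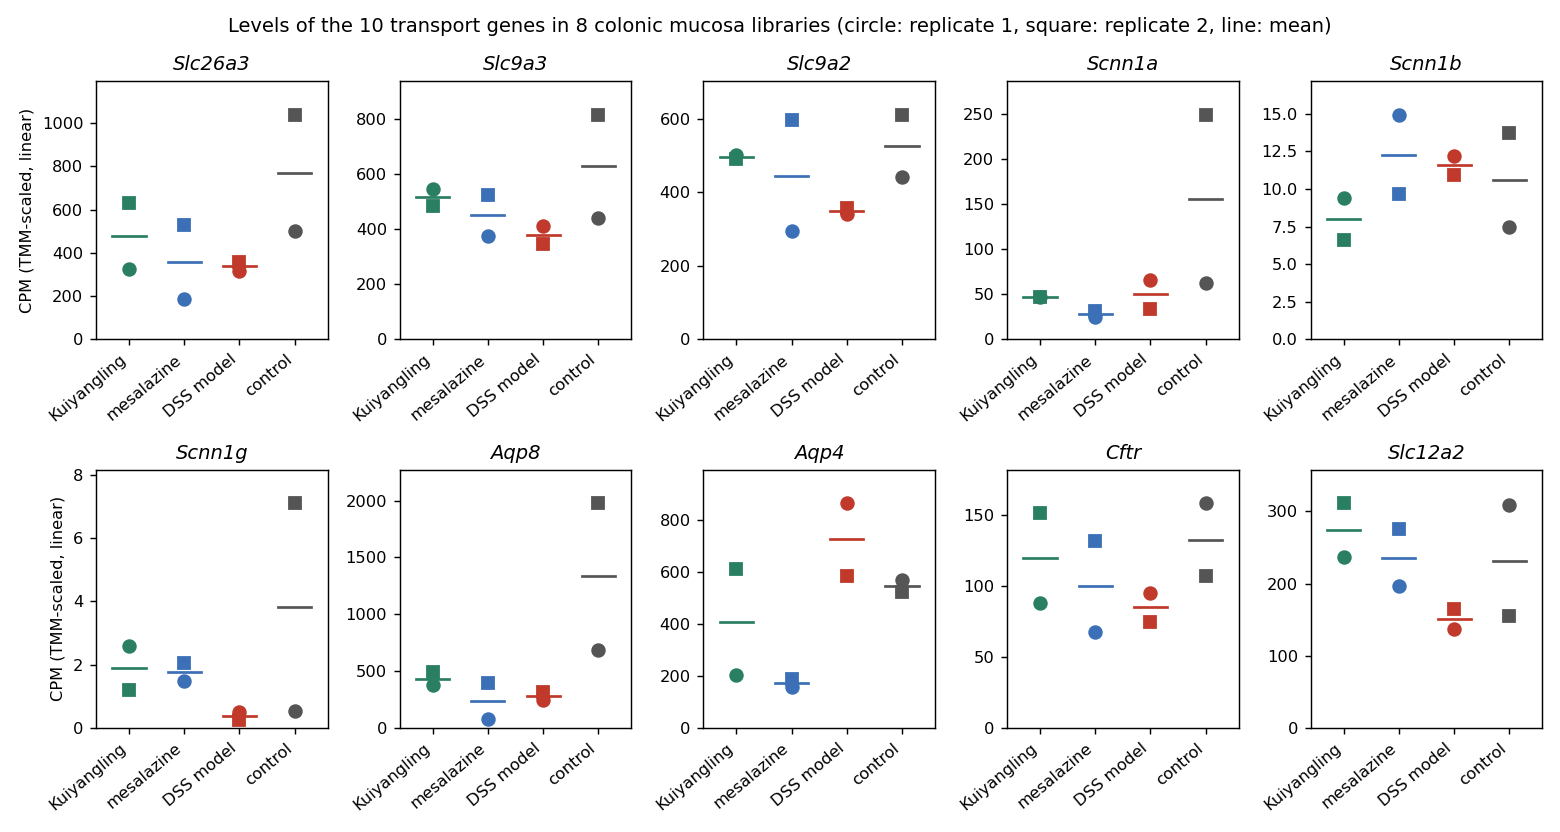
CPM of each member on a linear axis, with the Kuiyangling, mesalazine, DSS model and control groups from left to right; circles are replicate 1, squares replicate 2 and lines group means. Control 2 is the highest library for Slc26a3, Slc9a3, Slc9a2, Scnn1a, Scnn1g and Aqp8, whose panels show it between 7.09 CPM (Scnn1g) and 1975 CPM (Aqp8).

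Among the exchangers, Slc26a3 had 317 and 357 CPM in the DSS model libraries, against 501 and 1038 CPM in control libraries. Both DSS model values lay below both controls, and the log2 change was -1.19 (SE 0.53; edgeR adjusted p = 0.333), or -0.57 without control 2. Slc9a3 had 412 and 347 CPM in the DSS model and 439.6 and 814 in controls. This was a log2 change of -0.72 (95% interval -1.51 to 0.06; edgeR adjusted p = 0.360), and -0.21 without control 2. Slc9a2, with 340.1 and 357 CPM in the DSS model and 442 and 611 in controls, was at -0.60 (95% interval -1.40 to 0.20), or -0.34 without control 2. All 3 exchangers were lower in both DSS model animals than in either control, and for each the higher control was control 2.

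The 3 ENaC subunits did not follow one another. Scnn1a, the alpha subunit, had 66.0 and 33.8 CPM in the DSS model, against 62.1 and 249 CPM in controls, so DSS model 1 and control 1 were alike and control 2 stood alone. Its log2 change was -1.64 (SE 0.56; edgeR adjusted p = 0.243), and -0.32 without control 2. Scnn1g, the gamma subunit, was near the floor, with 8 and 4 counts in the DSS model libraries and 11 and 115 in the controls. The log2 change of -3.27 (95% interval -5.63 to -0.91; edgeR adjusted p = 0.223) became -0.49 without control 2. Without control 1 it was -4.18 and called (edgeR adjusted p = 0.0455). Scnn1b, the beta subunit, had 12.2 and 10.9 CPM in the DSS model and 7.48 and 13.7 CPM in controls, within the range of the controls (log2 change 0.13, 95% interval -0.72 to 0.98).

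Both water channels were abundant and differed from each other. Aqp8, the apical channel of surface cells, had 249 and 314 CPM in the DSS model, against 691 and 1975 CPM in controls. The DSS model values lay below both controls, and the log2 change of -2.25 (SE 0.68; 95% interval -3.76 to -0.73; edgeR adjusted p = 0.201) was the widest among the members after that of Scnn1g. It was -1.30 without control 2 and -2.82 without control 1. Aqp4, a basolateral channel, had 864 and 587 CPM in the DSS model and 568 and 523 CPM in controls. It was the 1 member whose DSS model libraries were both above both controls (log2 change 0.41, 95% interval -0.60 to 1.42; edgeR adjusted p = 0.663).

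Neither secretory gene passed the test (edgeR adjusted p = 0.434 for Cftr and 0.423 for Slc12a2). Cftr had 95.1 and 74.9 CPM in the DSS model, against 158 and 107 CPM in controls (log2 change -0.64, 95% interval -1.52 to 0.23). Slc12a2 had 137 and 165 CPM in the DSS model and 309 and 155 CPM in controls (log2 change -0.62, 95% interval -1.43 to 0.19). For both genes control 1 was the higher control, whereas control 2 was the higher for the exchangers, the ENaC subunits and Aqp8. Without control 1 the changes were -0.34 for Cftr and -0.043 for Slc12a2. Slc12a2 in control 2 lay between the 2 DSS model values.

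Setting all 3 DSS-drinking groups against controls uses 6 libraries against 2. All 10 members had a log2 change below 0, with a median of -0.53, beside -0.03 over all genes. Scnn1a fell and was the 1 member called of 10, against 2.19% of all genes called, 0.844% higher and 1.35% lower. Its levels were 46.7 ± 0.238 CPM with Kuiyangling, 28.4 ± 4.74 with mesalazine, 49.9 ± 22.7 in the DSS model and 156 ± 132 in controls (SD, n = 2 each). Its log2 change was -1.94 (SE 0.41; edgeR adjusted p = 0.0442). DSS model 1, at 66.0 CPM, was above control 1, at 62.1, so the groups overlapped. The call was lost without control 2, where the change was -0.62 (edgeR adjusted p = 0.701), and it was also lost without either DSS model or Kuiyangling library or without mesalazine 1 (adjusted p = 0.0571 to 0.107). Limma on FPKM did not call it (adjusted p = 0.106 and 0.130 with pseudocounts of 0.1 and 1).

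Aqp8 was the 1 member of 10 whose 6 DSS-drinking libraries all lay below both controls, and none lay above them, against 11.3% and 14.3% of all genes and 25.5% in either direction. It had 381 and 490.2 CPM with Kuiyangling, 83.4 and 399 with mesalazine and 249 and 314 in the DSS model, against 691 and 1975 CPM in controls. The log2 change of -2.11 (95% interval -3.19 to -1.02) missed the threshold (edgeR adjusted p = 0.0566), and DESeq2 called it (adjusted p = 3.27e-04). Without control 2 it was -1.16 (edgeR adjusted p = 0.665), and without control 1 -2.69 (edgeR adjusted p = 0.0304). Slc26a3 stood at -0.99 (edgeR adjusted p = 0.209), or -0.38 without control 2, with Kuiyangling 2 and mesalazine 2, at 629 and 529 CPM, above control 1, at 501. Scnn1g changed sign with the control used, from -2.71 without control 1 to 0.99 without control 2, and Slc12a2 did so from 0.45 to -0.53. Slc9a3 and Scnn1b were at 0.02 and 0.48 without control 2.

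**Figure D2:**
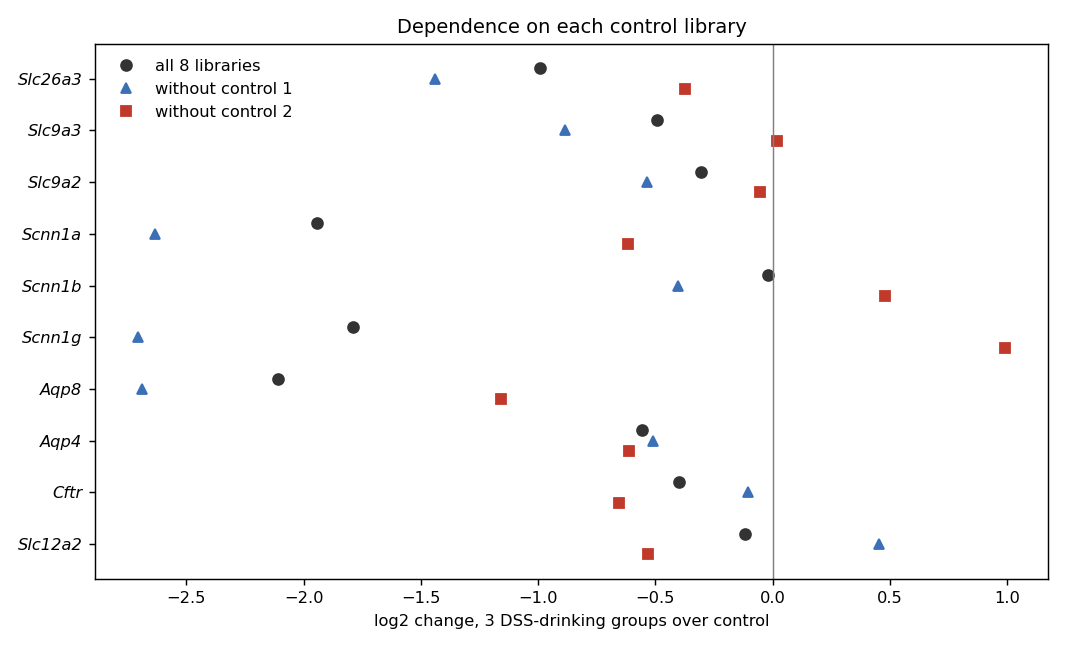
Log2 change of the 3 DSS-drinking groups over control (x axis) for each member (y axis), with all 8 libraries (circles), without control 1 (triangles) and without control 2 (squares). Aqp8 lies below -1 in all 3 fits (-2.69 to -1.16), while Scnn1g runs from -2.71 to 0.99 and Aqp4 from -0.61 to -0.51.

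In bulk mucosa, fewer cells of a type and less RNA per cell cannot be told apart. The epithelial markers summed to 24704 and 20955 CPM in the DSS model, against 17041 and 20122 CPM in controls, with 9 of 10 markers above 0 in log2 change (median 0.28). Surface colonocyte markers summed to 15729 and 16672 CPM in the DSS model, against 13460 and 14127 CPM in controls, but this sum is carried by Car1, at 7815 and 9119 CPM in the DSS model and 7576 and 3280.3 CPM in controls. Of the 10 surface markers 5 were above 0 and 5 below (median -0.14), so the list as a whole had no single direction. Per 1000 counts of the epithelial markers, Aqp8 had 10.1 and 15.0 counts in the DSS model, against 40.5 and 98.1 in controls. On the same scale Slc26a3 had 12.8 and 17.0 against 29.4 and 51.6 and Slc9a3 16.7 and 16.6 against 25.8 and 40.4. With these marker counts as library size, the log2 changes were -2.47 for Aqp8, -1.44 for Slc26a3 and -0.99 for Slc9a3, beside a median of -0.33 over all genes. Neutrophil markers summed to 42.4 and 88.1 CPM in the DSS model and to 0.842 and 1.60 CPM in controls, and 4 of 7 tested neutrophil genes, Il1b, Retnlg, S100a8 and S100a9, rose. Goblet cell markers split, with 4 of 8 above 0 and 4 below (median 0.12). By edgeR none was called in the DSS model against control, and 2 had an unadjusted p under 0.05, against 14.8% of all genes. Crypt stem cell and cycling markers summed to 223 and 458 CPM in the DSS model, against 575 and 275 CPM in controls. Of the 9 tested, 7 were below 0 and 2 above (median -0.82). The part of these cells in the members' differences was not tested.

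Ratios of members within a library do not depend on scaling. Counts of Slc26a3 per count of Cftr were 3.70 and 4.16 with Kuiyangling, 2.75 and 4.02 with mesalazine and 3.33 and 4.77 in the DSS model, against 3.17 and 9.70 in controls. Control 1 sat among the DSS-drinking libraries and control 2 alone was apart. For Scnn1a per count of Scnn1b the order was different: 4.95 and 7.11 with Kuiyangling, 1.68 and 3.30 with mesalazine and 5.41 and 3.09 in the DSS model, all below the 8.30 and 18.2 of controls. The alpha subunit was therefore lower relative to the beta subunit in every DSS-drinking library than in either control library, at most 7.11 against 8.30. Control 1 had Scnn1a at 62.1 CPM and Scnn1b at 7.48, against 66.0 and 12.2 in DSS model 1. The other ratios taken overlapped. Aqp8 per count of Aqp4 was 2.13 in mesalazine 2 and 1.22 in control 1. Slc9a3 per count of Slc12a2 was 3.02 in DSS model 1, between 1.42 and 5.27 in controls. How often ratios of other genes separate was not examined.

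The next question was whether the herbal formula altered these genes in mice that drank DSS. Several absorptive and secretory members had higher values with Kuiyangling, but none was called (0 of 10, against 0% of all genes). Of the 10 members 7 had a log2 change above 0, with a median of 0.50, beside 0.00 over all genes, and the libraries did not overlap for 5 members higher and 1 lower, against 21.9% and 21.1% of all genes and 43% in either direction. DESeq2 and limma called 0, and 1 member, Slc12a2, had an unadjusted p under 0.05, against 3.56% of all genes.

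Slc12a2 had 236 and 311 CPM with Kuiyangling, against 137 and 165 CPM in the DSS model (log2 change 0.86, 95% interval 0.04 to 1.67; edgeR adjusted p = 0.996). Slc9a2 had 501 and 492 CPM against 340.1 and 357 (0.51, -0.29 to 1.31), and Slc9a3 546 and 484 against 412 and 347 (0.44, -0.34 to 1.22). For these 3 genes both Kuiyangling animals were above both DSS model animals. Aqp8, at 381 and 490.2 CPM with Kuiyangling and 249 and 314 in the DSS model, was separated in the same direction and still below both controls (0.63, -0.82 to 2.08). Scnn1g had 42 and 23 counts with Kuiyangling against 8 and 4 in the DSS model, a log2 change of 2.27 with an interval from -0.09 to 4.63. Scnn1b went the other way, at 9.41 and 6.59 CPM against 12.2 and 10.9 (-0.53, -1.39 to 0.32).

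The remaining members overlapped between Kuiyangling and the DSS model. Slc26a3 had 326 and 629 CPM with Kuiyangling and 317 and 357 in the DSS model, and its log2 change of 0.50 was -0.05 without Kuiyangling 2. Cftr had 88.2 and 151 against 95.1 and 74.9 CPM (0.50, or 0.053 without Kuiyangling 2) and Scnn1a 46.5 and 46.9 against 66.0 and 33.8 CPM (-0.10, 95% interval -1.31 to 1.12; 0.36 with epithelial marker counts as library size). Aqp4 split the Kuiyangling animals, with 204 and 611 CPM against 864 and 587 in the DSS model (-0.83, 95% interval -1.85 to 0.18), or -0.27 without Kuiyangling 1 and -1.83 without Kuiyangling 2.

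**Figure D3:**
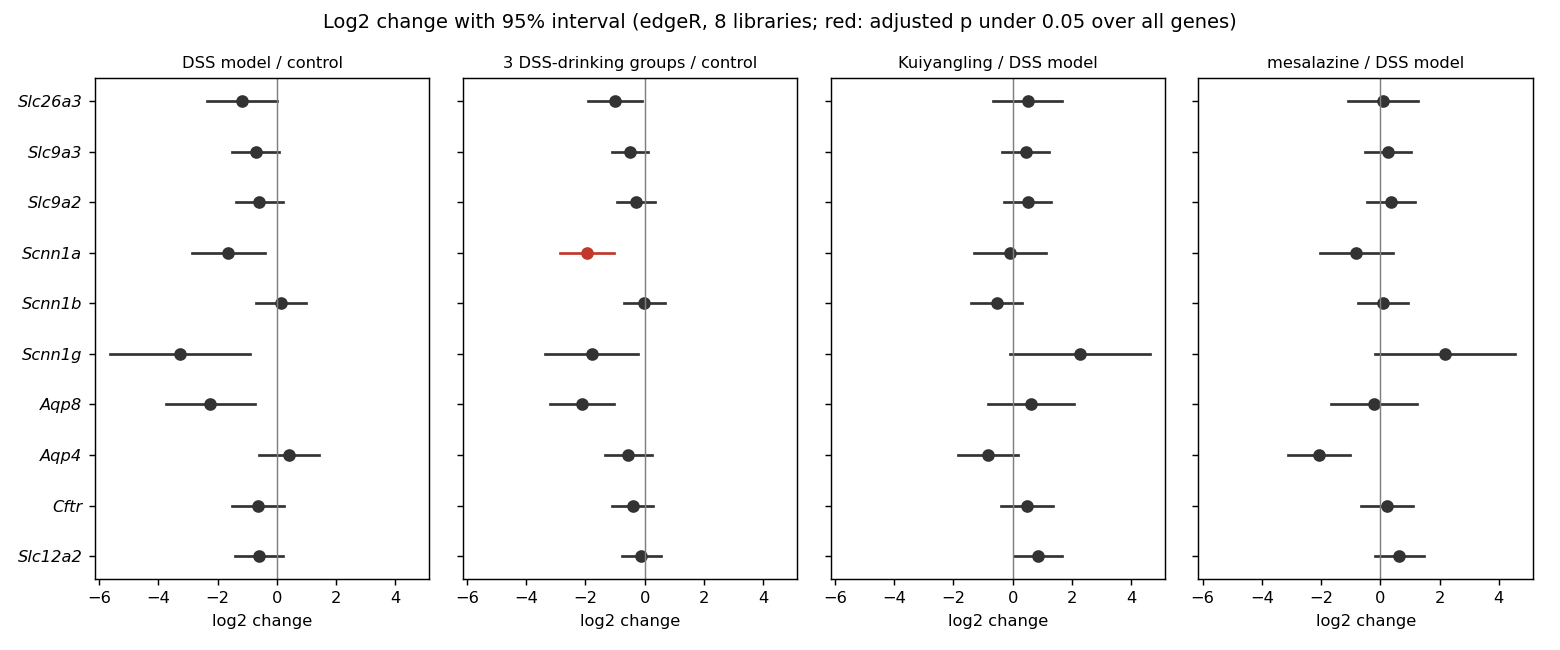
Log2 change (x axis) with its 95% interval for each member (y axis) in 4 comparisons; red marks an adjusted p under 0.05 over all genes. Scnn1a in the DSS-drinking groups against control (-1.94) is the 1 red point, and Aqp4 with mesalazine (-2.07) has an interval that stays below 0.

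Mesalazine was compared with the DSS model in the same way. Aqp4 was lower in both mesalazine animals, and no member was called (0 of 10, against 0% of all genes). One member, Aqp4, had an unadjusted p under 0.05, against 5.49% of all genes, and the libraries did not overlap for 2 members higher and 2 lower, against 14% and 13.8% of all genes and 27.7% in either direction. In mesalazine animals Aqp4 stood at 158 and 187 CPM, against 864 and 587 CPM in the DSS model. The log2 change was -2.07 (SE 0.47; 95% interval -3.12 to -1.02; edgeR adjusted p = 0.503, unadjusted p = 0.00133). DESeq2 called Aqp4 (adjusted p = 0.00132), as did edgeR without the filter on low counts (adjusted p = 0.00819), and limma on FPKM did not (adjusted p = 0.604). Without mesalazine 1, the library with the high ribosomal share, the log2 change was -1.96. Both mesalazine animals were also below both controls, at 568 and 523 CPM.

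By ratio, the mesalazine animals differed most from each other in Aqp8 and Slc26a3. Mesalazine 1 was the lowest of the 8 libraries for Slc26a3, Slc9a2, Scnn1a, Aqp8, Aqp4 and Cftr, while mesalazine 2 was above both DSS model libraries for Slc26a3, Slc9a3, Slc9a2, Aqp8, Cftr, Slc12a2 and Scnn1g. Slc26a3 had 186 and 529 CPM with mesalazine and 317 and 357 in the DSS model, so its log2 change of 0.09 was 0.64 without mesalazine 1 and -0.86 without mesalazine 2. Aqp8 had 83.4 and 399 CPM against 249 and 314 (-0.22, or 0.49 without mesalazine 1 and -1.75 without mesalazine 2). Slc9a3 had 375 and 525 against 412 and 347 CPM (0.25), and Slc9a2 295 and 596 against 340.1 and 357 (0.35). The 2 mesalazine animals lay on either side of the DSS model for Slc26a3, Slc9a2, Scnn1b, Aqp8 and Cftr.

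Slc12a2 was higher in both mesalazine animals, at 196 and 276 CPM against 137 and 165 CPM in the DSS model (0.64, 95% interval -0.17 to 1.46), and Scnn1g had 21 and 35 counts against 8 and 4 (2.18, -0.20 to 4.55). Scnn1a was lower in both, at 25.1 and 31.8 against 66.0 and 33.8 CPM (-0.81, -2.03 to 0.41). Cftr, at 67.7 and 132 against 95.1 and 74.9 CPM (0.23), and Scnn1b, at 14.9 and 9.63 against 12.2 and 10.9 (0.08), overlapped with the DSS model. The Kuiyangling and mesalazine comparisons share the DSS model libraries, so their values are not independent of each other.

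Between the treatments themselves, 0 of 10 members were called in Kuiyangling against mesalazine (0% of all genes; DESeq2 and limma also called 0 members), and 1 had an unadjusted p under 0.05, against 1.90% of all genes. This was Aqp4, with 204 and 611 CPM in Kuiyangling and 158 and 187 CPM in mesalazine animals (log2 change 1.24, 95% interval 0.22 to 2.26; edgeR adjusted p = 0.999). The change was 0.24 without Kuiyangling 2 and 1.80 without Kuiyangling 1, so it rested mainly on Kuiyangling 2. Scnn1a was also separated, at 46.5 and 46.9 CPM in Kuiyangling and 25.1 and 31.8 in mesalazine animals, as was Scnn1b, at 9.41 and 6.59 CPM in Kuiyangling and 14.9 and 9.63 in mesalazine animals. With Aqp4 these made 2 members higher and 1 lower with Kuiyangling, against 10.6% and 11.6% of all genes and 22.1% in either direction.

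The gene profiles closest to Aqp4 over the 8 libraries were those of Hoxa10 and Hoxa11, homeobox genes expressed by position along the body axis, and Slc45a3, a member of the solute carrier family. Likeness was the root mean square difference of log2 CPM after each gene's mean was removed, among the 10201 tested genes whose mean reached 5 CPM. These differences were 0.33, 0.33 and 0.42, where Aqp4 itself had an SD of 0.94 over the libraries. Hoxa10 had 11.9 and 27.0 CPM with Kuiyangling, 5.59 and 13.8 with mesalazine and 42.6 and 31.7 in the DSS model, against 41.5 and 27.9 CPM in controls. Hoxa11 had 4.21 and 7.01, 3.75 and 2.74 and 12.5 and 10.9 CPM in the same order, against 12.1 and 8.45 CPM in controls. Kuiyangling 1 and both mesalazine libraries were the 3 lowest for Aqp4 and for both Hox genes, an order that follows from choosing these genes for their likeness to Aqp4.

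Lists of genes of gut position, not chosen by likeness to Aqp4, also varied between libraries. Small intestine genes, including the ileal bile acid transporter Slc10a2, summed to 349 and 166 CPM with Kuiyangling, 214 and 691 with mesalazine and 67.2 and 70.3 in the DSS model, against 85.4 and 22.2 CPM in controls. Posterior gut genes summed to 19.5 and 56.3 CPM with Kuiyangling, 3.04 and 7.76 with mesalazine and 44.3 and 17.0 in the DSS model, against 52.6 and 263 CPM in controls. Hoxb13, a posterior homeobox gene, had 5.88 and 23.2 CPM with Kuiyangling, 0.212 and 0.642 with mesalazine and 12.9 and 2.98 in the DSS model, against 19.9 and 175 in controls. It fell in the DSS-drinking groups (-4.70, edgeR adjusted p = 0.0171), as did Insl5, a hormone of distal enteroendocrine cells (-2.03, adjusted p = 0.0471). Without control 2 these were -2.42 and -1.32 and not called (adjusted p = 0.341 and 0.556). Over the 8 fits that each left out 1 library, Hoxb13 was called in 6 and Insl5 in 4. Limma called neither. ENaC, Aqp4 and Slc26a3 vary along the normal colon, and the part of position in the members' differences was not tested. Aqp4 is also made by glia. The glial markers Sox10 and S100b were at 0 to 0.117 CPM in every library. The enteric glia and neuron list, with Ret the most abundant, summed to 3.82 to 15.8 CPM, and 2 of its 8 genes had enough counts to be tested. The part of glia in the Aqp4 values was not tested.

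**Figure D4:**
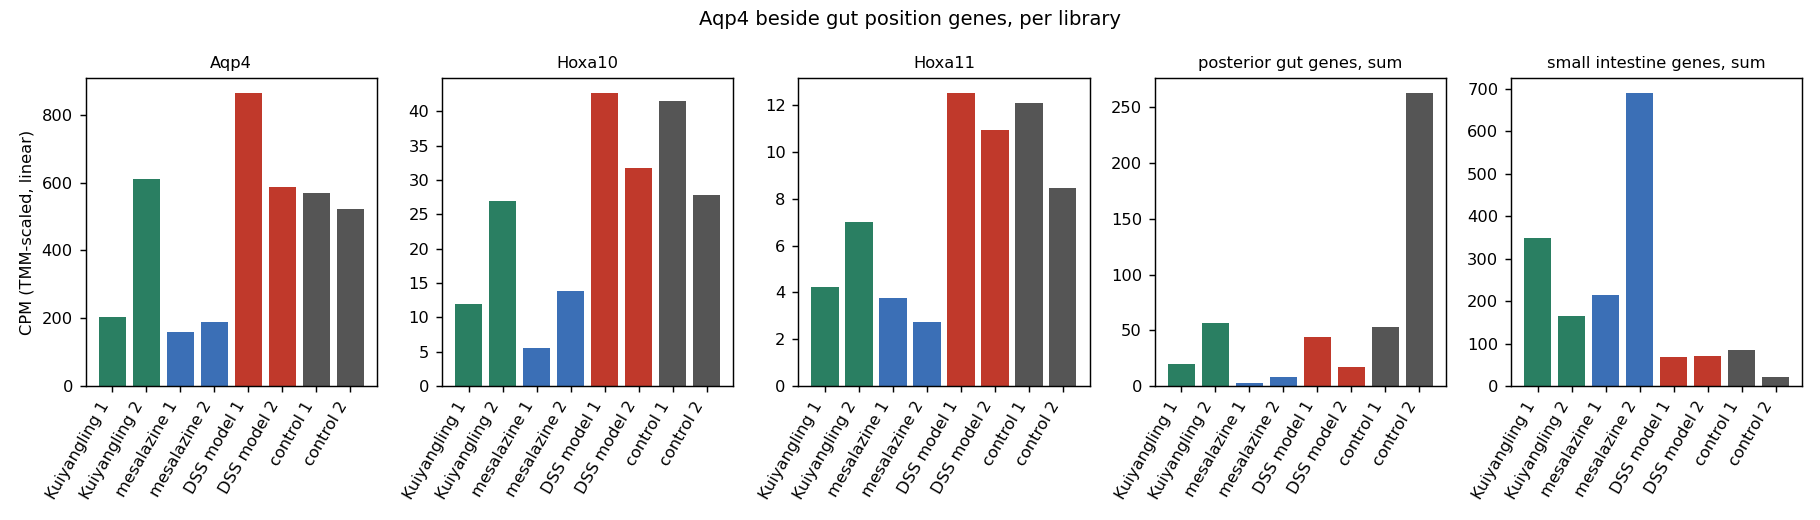
CPM on linear axes from 0, 1 bar per library, with the Kuiyangling, mesalazine, DSS model and control libraries from left to right, for Aqp4, Hoxa10, Hoxa11 and the summed posterior gut and small intestine lists. Kuiyangling 1 and both mesalazine libraries have the 3 lowest bars for Aqp4 (158 to 204 CPM) and for Hoxa10 and Hoxa11, which were chosen for their likeness to it, and control 2 has the highest sum of posterior gut genes (263 CPM).

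For the other members, the closest profiles were those of Btnl4, Elk4 and Acap2 for Slc26a3 (0.22 to 0.25, against its own SD of 0.75) and of Map3k13, Phlpp2 and Utp14b for Aqp8 (0.33 to 0.36, against 1.29). Btnl4 belongs to the butyrophilin-like family of gut epithelium, and had 60.7 and 90.3 CPM with Kuiyangling, 26.2 and 76.6 with mesalazine and 46.0 and 44.1 in the DSS model, against 103 and 147 in controls. Phlpp2, a phosphatase of AKT, had 47.0 and 67.2, 16.3 and 60.7 and 29.6 and 28.0 CPM in the same order, against 76.2 and 189 in controls. Mesalazine 1 was lowest and control 2 highest in both, as for Slc26a3 and Aqp8. Scnn1b, which varied little (SD 0.40), was most like Idnk, Gtpbp6 and Brms1 (0.10 to 0.14).

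The other genes of colonic ion and water transport were examined in 10 lists of 112 genes, of which 107 were in the tables and 91 were tested. In the DSS model against control, edgeR called 1 of 91 higher, Prss22, and 0 lower (1.10%, against 0.247% of all genes called), with a median log2 change of -0.30, beside -0.04 over all genes. At an unadjusted p under 0.05 there were 17 of 91, against 14.8% of all genes. DESeq2 called 2 higher, Prss22 and Guca2b, and 5 lower, Slc26a2, Fxyd4, Ano1, Sgk1 and Tsc22d3, and limma called Prss22 alone. Over all genes DESeq2 called 255 higher and 180 lower, and limma 19 or, with the smaller pseudocount, 33. In the DSS-drinking groups against control, edgeR called 2 higher and 5 lower (7.69%, against 2.19% of all genes). DESeq2 called 3 and 9, where it called 519 higher and 446 lower over all genes. Limma called 1 and 2 (51 and 66 over all genes) or, with the smaller pseudocount, 2 and 1 (88 and 63). In Kuiyangling against the DSS model, mesalazine against the DSS model and Kuiyangling against mesalazine, edgeR called 0 of 91, against 0% of all genes. At an unadjusted p under 0.05 by edgeR there were 1, 11 and 4, against 3.56%, 5.49% and 1.90% of all genes. DESeq2 and edgeR without the filter on low counts each called 1 in mesalazine against the DSS model, Aqp1. Over all genes they called 91 and 104 there. Limma called 0 in all 3 comparisons.

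By role, the tested genes of most lists leaned to lower levels in the DSS model, and Prss22 was the 1 that passed the edgeR test. Over all genes 52.5% had a log2 change below 0. How far the lean of each list rests on control 2 was not examined. Of 8 scaffolds that tether transporters, 7 had a log2 change below 0 (median -0.71), and of 18 other exchangers and cotransporters 15 did (median -0.31). Of 7 potassium channels, which set the driving force for secretion, 6 were below 0 (median -0.42). The 8 sodium and proton pump genes split evenly (median -0.02), and of 8 channel-cleaving proteases and inhibitors 6 were above 0 (median 0.19). The scaffold Slc9a3r1 (NHERF1) had 367 and 371 CPM in the DSS model, against 374 and 683 in controls, and Kcnn4, the calcium-activated potassium channel of colonocytes, 29.2 and 48.8 against 49.9 and 56.4 CPM. Wnk4, a kinase that regulates chloride cotransporters, had 38.2 and 17.0 CPM against 46.9 and 67.0 CPM (-1.04; edgeR adjusted p = 0.275). Prss8, a protease that activates ENaC, stood at 65.5 and 55.4 against 53.7 and 47.9 CPM. Kcnk5, a potassium channel of the basolateral membrane, had 72.6 and 49.5 against 76.7 and 128 CPM, Kcnma1 13.0 and 10.1 against 16.7 and 14.2 CPM, and Slc26a6 1.57 and 1.59 against 1.83 and 4.07 CPM.

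The genes called lower in the DSS-drinking groups were Ano1, Atp12a, Fxyd4, Shank2 and Tsc22d3. The part of position along the colon in the differences of these genes was not tested. Ano1, a calcium-activated chloride channel, had 15.0 and 29.6 CPM with Kuiyangling, 13.5 and 12.3 with mesalazine and 17.8 and 18.2 in the DSS model, against 38.8 and 142 CPM in controls (log2 change -2.38; edgeR adjusted p = 0.0175). Atp12a, the colonic proton-potassium pump, had 9.04 and 63.1, 0.283 and 3.21 and 9.18 and 9.95 CPM in the same order, against 21.6 and 885 CPM in controls (-5.73; edgeR adjusted p = 0.0236). Control 2, which also had the highest sum of posterior gut genes, alone held most of the Atp12a, and Kuiyangling 2 was above control 1. Fxyd4, an aldosterone-induced regulator of the sodium pump, had 4 counts in the 6 DSS-drinking libraries and 74 in the 2 controls, a ratio of 0.0201 after scaling (95% counting interval 0.00535 to 0.0538; edgeR adjusted p = 0.0212). Its level was 0.694 CPM in control 1 and 3.70 CPM in control 2, and it was not called without control 2 or without DSS model 2 (edgeR adjusted p = 0.2999 and 0.0614).

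Shank2, a scaffold that binds NHE3, had 7.37 and 8.77 CPM with Kuiyangling, 4.88 and 9.11 with mesalazine and 10.0 and 7.62 in the DSS model, against 22.7 and 16.8 CPM in controls (-1.31; edgeR adjusted p = 0.0454). All 6 DSS-drinking libraries lay below both controls, as in 11.3% of all genes. Tsc22d3, the glucocorticoid-induced leucine zipper that also responds to aldosterone, had 38.9 and 37.1, 40.9 and 47.8 and 56.0 and 30.4 CPM in the same order, against 77.2 and 156 CPM in controls (-1.48; edgeR adjusted p = 0.0355), again without overlap. Without control 2 the changes of Ano1, Atp12a, Shank2 and Tsc22d3 were -1.16, -1.34, -1.52 and -0.89, and none was called (adjusted p = 0.226 to 0.701). Over the 8 fits that each left out 1 library, Ano1 was called in 6, Atp12a in 4, Tsc22d3 in 3 and Shank2 in 2. Limma on FPKM called none of the 4 (adjusted p = 0.0588 to 0.171), and Shank2 was also not called with epithelial marker counts as library size (adjusted p = 0.0778).

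The genes that rose were Guca2b and Prss22. Guca2b, uroguanylin, a peptide that drives fluid secretion through guanylate cyclase C, had 52.7 and 36.4 CPM with Kuiyangling, 133 and 47.5 with mesalazine and 54.3 and 54.2 in the DSS model, against 16.3 and 18.3 CPM in controls. Its log2 change was 1.80 in the DSS-drinking groups (SE 0.39; edgeR adjusted p = 0.0474) and 1.88 without control 2, where it was not called (adjusted p = 0.363). It was called in 2 of the 8 fits that each left out 1 library, those without a mesalazine library. It was not called with epithelial marker counts as library size (adjusted p = 0.0503) or by limma with a pseudocount of 1 (adjusted p = 0.0549). All 6 DSS-drinking libraries were above both controls, as in 14.3% of all genes, and the 2 control values were close to each other. Its relative Guca2a, guanylin, overlapped between the groups, with 2441 and 1619.9 CPM with Kuiyangling, 4251 and 2212 with mesalazine and 1972 and 2316 in the DSS model, against 1477 and 1809.6 in controls (log2 change 0.55). The serine protease gene Prss22 had 353 counts in the DSS model, against 1 in controls, a ratio of 415 (95% counting interval 74.0 to 16427; edgeR adjusted p = 0.00273), and was not called without control 2 (edgeR adjusted p = 0.0671).

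Sgk1, Nr3c2, Hsd11b2 and Nedd4l, which regulate ENaC or its control by aldosterone, did not pass the edgeR test. The aldosterone-responsive Tsc22d3 and the protease gene Prss22, described above, passed it in the DSS-drinking groups against control. In the DSS model against control Prss22 passed and Tsc22d3 did not (edgeR adjusted p = 0.165). Sgk1, the aldosterone-induced kinase that keeps ENaC at the membrane, had 409 and 169.8 CPM with Kuiyangling, 337 and 360.4 with mesalazine and 85.1 and 206 in the DSS model, against 333 and 490.2 CPM in controls. Both DSS model values were below both controls (-1.50; edgeR adjusted p = 0.233), as in 26.3% of all genes. DESeq2 called Sgk1 (adjusted p = 0.0394), as did edgeR without the filter on low counts (adjusted p = 0.0374). The log2 change was -0.99 without DSS model 1. Against the DSS model it was 0.99 with Kuiyangling (edgeR adjusted p = 0.996), or 0.19 without Kuiyangling 1 and 0.49 without DSS model 1. With mesalazine it was 1.26 (edgeR adjusted p = 0.805), or 0.76 without DSS model 1. Nr3c2, the mineralocorticoid receptor, stood at 95.3 and 93.5 CPM in the DSS model, against 105 and 114 in controls. Hsd11b2, the enzyme that shields this receptor from glucocorticoids, was at 731 and 361 against 260.1 and 532 CPM, and Nedd4l, the ubiquitin ligase that removes ENaC, at 132 and 95.5 against 101 and 106 CPM. Atp1b1, a beta subunit of the sodium pump, had a log2 change of 0.02 between the DSS model and controls (SE 0.40).

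Among other transporters, Slc26a2, a sulfate transporter of the same family as Slc26a3, had 105 and 218 CPM with Kuiyangling, 51.9 and 154 with mesalazine and 97.2 and 82.1 in the DSS model, against 255 and 331 CPM in controls. All 6 DSS-drinking libraries were below both controls, as in 11.3% of all genes (log2 change -1.36; edgeR adjusted p = 0.0926). Aqp1, a water channel of vessels and other cells, had 76.5 and 60.2 CPM with Kuiyangling and 163 and 73.8 with mesalazine, against 19.4 and 46.9 in the DSS model, a log2 change of 1.04 and 1.83 (edgeR adjusted p = 0.996 and 0.523). DESeq2 called the change with mesalazine (adjusted p = 0.0145), which was 1.14 without mesalazine 1. Endothelial markers accompany Aqp1 in vessels. They summed to 32.9 and 22.1 CPM with Kuiyangling, 28.0 and 9.22 with mesalazine and 9.06 and 15.0 in the DSS model. In controls these markers summed to 8.37 and 9.002 CPM, while Aqp1 was at 73.4 and 57.9 CPM. The part of these markers in the changes of Aqp1 was not tested. Aqp11 was at 34.4 and 29.1, 59.2 and 39.5 and 26.7 and 30.0 CPM in the same order, against 29.2 and 19.8 in controls. Aqp3 and Aqp7 were at or near 0 in every library, at 0 to 0.363 and 0 to 0.149 CPM.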

How the data were processed

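RNA-seq libraries of colonic mucosa from 8 mice were analysed, 2 in each of 4 groups. Per the labels' protocols, RNA with an integrity number of at least 7 was extracted with the mirVana kit and made into TruSeq stranded mRNA libraries, and the submitters' processing notes name Trimmomatic and HISAT2. The genome build, annotation, counting tool and strand setting are not given in the sources used here. Reads of overlapping antisense genes may not be told apart. The authors deposited gene counts and FPKM. Each deposited FPKM was the count over the library total and a gene length that was constant across libraries. One mesalazine count column is spelled unlike its sample's title and was taken as replicate 2.

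Counts were tested with the quasi-likelihood test of edgeR 4.0.16 in R 4.3.3, with TMM scaling, genes filtered by group (filterByExpr, 13381 of 17353 kept), 1 fit of all 8 libraries without a replicate block, and Benjamini-Hochberg adjustment over all tested genes at 0.05, for 5 comparisons. CPM are TMM-scaled. Limma 3.58.1 on log2(FPKM + 1) and log2(FPKM + 0.1), DESeq2 1.42.0, its size factors, no filter, fits of only the groups compared, a replicate block, epithelial marker counts as library size and leaving out each library were the alternatives. Libraries held 15560946 to 17843715 counts, and counting intervals and the floor of 3 counts cover counting error only. The edgeR step was tested on simulated counts. Changes of 2-fold were recovered in 8% of cases for the DSS model against control and 20% for the DSS-drinking groups against control. They were recovered in 10% for Kuiyangling and 4% for mesalazine against the DSS model, and 8% for Kuiyangling against mesalazine. Changes of 4-fold were recovered in 66% to 88%. A member that was not called may therefore still have changed by 2-fold or more. In the DSS model against control, Aqp8 had a log2 change of -2.25 (SE 0.68) and Scnn1g of -3.27 (SE 1.06). Aqp4 had -2.07 (SE 0.47) in mesalazine against the DSS model. EdgeR called none of these. The rate of recovery for the members themselves was not tested. Nothing says more of the animals than that they were separate mice, so p-values measure the spread between these samples. The members, gene lists and tests were chosen with earlier results of these data known. Genes were named as members, as list genes called in a comparison, as the gene with the smallest p in its list, as part of a panel of known transport genes, or as the 3 closest profiles of Slc26a3, Aqp8, Scnn1b and Aqp4; Slc10a2, Sox10, S100b and Ret were named after their values were seen. One gene of the panel is not reported here.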

Additional observations from a re-analysis of the deposited data

How the results depend on the processing

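Of 974 values from alternatives for 62 results, 24 reversed direction, 16 of them without 1 library and 8 under another setting, in 13 results. The number of members called in the DSS model against control was 3 without the filter on low counts and 3 with DESeq2 (Scnn1a, Scnn1g and Aqp8 in both), and 0 to 1 when each library was left out. In the DSS-drinking groups against control it was 3 without the filter, 2 with DESeq2, 0 with limma at either pseudocount, and 0 to 3 when each library was left out. In mesalazine against the DSS model it was 1 (Aqp4) without the filter and 1 with DESeq2.

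Over all genes, the DSS model against control gave 33 calls, and 487 without the filter, 435 with DESeq2, 19 and 33 with limma at pseudocounts of 1 and 0.1, 19 with epithelial marker counts as library size, and 1 to 195 when each library was left out. The DSS-drinking groups against control gave 293 calls, and 1169 without the filter, 965 with DESeq2, 117 and 151 with limma, 185 with epithelial marker counts as library size and 3 to 2300 when each library was left out. Kuiyangling against the DSS model gave 0 calls, and 11, 13 and 21 without the filter, with DESeq2 and with only the groups compared. Mesalazine against the DSS model gave 0, and 104 and 91 without the filter and with DESeq2. Kuiyangling against mesalazine gave 0, and 3 without the filter. The cause of these differences was not tested.

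With epithelial marker counts as library size, the log2 change was -0.14 for Scnn1b in the DSS model against control, 0.36 for Scnn1a in Kuiyangling against the DSS model and 0.24 for Aqp8 in mesalazine against the DSS model, all reversed. With limma at pseudocounts of 1 and 0.1, Scnn1a in Kuiyangling against the DSS model was at 0.10 and 0.12, and Slc26a3 in mesalazine against the DSS model at -0.13 and -0.13.

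Leaving out each library gave log2 changes that crossed 0 for these members. In the DSS model against control the range was -0.25 to 0.63 for Scnn1b. In Kuiyangling against the DSS model it was -0.045 to 0.87 for Slc26a3 and -0.50 to 0.47 for Scnn1a. In mesalazine against the DSS model it was -0.86 to 0.64 for Slc26a3, -0.017 to 0.46 for Slc9a3, -0.24 to 0.76 for Slc9a2, -0.28 to 0.37 for Scnn1b, -1.75 to 0.49 for Aqp8 and -0.33 to 0.62 for Cftr. In the DSS-drinking groups against control it was -0.88 to 0.017 for Slc9a3, -0.41 to 0.48 for Scnn1b, -2.71 to 0.99 for Scnn1g and -0.53 to 0.45 for Slc12a2. Where a library left a group with 1 animal, that animal was assumed to vary like the other groups.

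Equal replicate numbers did not pair the samples: deviations of same-numbered libraries correlated at -0.31 to 0.16 over genes. With the number as a replicate block, 50 genes were called in the DSS model against control and 281 in the DSS-drinking groups against control. In the DSS-drinking groups the block called Aqp8 (edgeR adjusted p = 0.0204) and not Scnn1a (adjusted p = 0.0605) or Shank2 (adjusted p = 0.0584). With the block, Slc26a3 in mesalazine against the DSS model was at -0.12. Scnn1g, with 4 to 115 counts a library, is limited by depth.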
